A study of Mus musculus with 2 samples.

Results

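The MHC class II genes were followed across the cell types of the mouse temporomandibular joint (TMJ), the joint between the jaw and the skull. Their 7 members were taken as a named gene family and found by gene symbol, with no threshold on measured values, and each of the 7 matched 1 row of the 32285 genes in both libraries. H2-Aa and H2-Ab1 encode the alpha and beta chains of the class II molecule I-A, and H2-Eb1 encodes the beta chain of I-E. H2-DMa and H2-DMb1 encode the chains of H2-DM, which exchanges peptides on class II molecules inside the cell. Cd74 is the invariant chain, which escorts new class II molecules and blocks their groove. Ciita is the coactivator that switches the other genes on.

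Class II molecules display peptides from the endosomal route to CD4+ T cells. They are made all the time by dendritic cells, B cells and many macrophages, and interferon gamma can turn them on in endothelial cells, fibroblasts and other cells through Ciita. C57BL/6 mice carry no working I-E alpha gene, so H2-Eb1 RNA is made in this strain while its product lacks its usual partner.

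Class II genes are known to share an upstream module of X and Y boxes, on which the RFX and NF-Y factors assemble and which Ciita joins. RefSeq promoters of GRCm38.p6, which run from 250 bases before to 50 bases after a start site, were present for H2-Aa, H2-Eb1, H2-DMb1 and H2-DMa. The stretches shown hold the X letters CTNGNAACT and the Y letters GATTGG, both in capitals, and are printed because the chain genes they precede differed alike between the libraries. These letters were chosen after the promoters had been read.
H2-Aa, chr17:34287857-34287917, minus strand: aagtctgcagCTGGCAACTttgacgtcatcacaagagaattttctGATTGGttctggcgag
H2-Eb1, chr17:34305763-34305822, plus strand: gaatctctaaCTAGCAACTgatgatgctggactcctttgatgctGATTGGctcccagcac
The X letters begin 84 bases before the start of H2-Aa and 94 bases before that of H2-Eb1, and 26 and 25 bases separate the boxes. H2-DMb1 held the same pair with 26 bases between the boxes. Neither H2-DMa promoter window held the pair. Searched on both strands, the X letters occurred in 4.1% and the Y letters in 16.11% of 32851 promoters, and X followed by Y within 40 bases in 12 promoters, or 0.0365%. A match describes the letters and is not evidence of a bound site.

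The data were 2 single-cell RNA sequencing libraries of TMJs from C57BL/6 mice of genotype WT, 8 to 10 weeks old per the labels, 1 library after PBS and 1 after complete Freund's adjuvant (CFA), an oil emulsion of killed mycobacteria that inflames a joint. The methods state that females were injected at 8 weeks of age and that joints were collected 3 weeks later from 3 mice per group. The whole joint, bone and soft tissue alike, was brought into suspension, and CD45-bearing cells, which are the leukocytes, were depleted with magnetic beads in both groups. The number of leukocytes therefore does not reflect the joint, and levels are compared within cell classes. Such a comparison does not remove differences between the libraries in subtype make-up or in immune transcripts found in other cells. With 1 library per condition, differences between conditions rest on no replicates, and p-values are not given.

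After the limits of at least 500 genes, at most 10% mitochondrial UMIs and at most 1% hemoglobin UMIs per cell, 2667 PBS and 4014 CFA cells remained, with medians of 7022 and 6509.5 UMIs. A UMI marks 1 captured RNA molecule. The libraries shared 2 barcodes among these cells. Of 34 clusters, 28 could be named with 16 names from canonical markers, and the class II genes were left out of the clustering genes. Every endothelial-like cluster detected the 7 endothelial markers, among them Pecam1 and Cdh5. Levels are CPM, the UMIs of a gene per 1000000 UMIs of the cell class, with exact Poisson 95% intervals in parentheses. Ratios are CFA to PBS with exact conditional 95% intervals. All intervals and limits cover counting error only and leave out differences between mice and preparations. Intervals of levels, ratios and UMI percentages treat each UMI as independent, so they also leave out the spread between cells. They are too narrow where few cells hold many of the UMIs, and a lack of overlap between them is a description.

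The genes lie in the MHC and on separate chromosomes. In GENCODE vM21 on GRCm38, H2-Aa (ENSMUSG00000036594) spans chr17:34282744-34287823 on the minus strand. H2-Ab1 (ENSMUSG00000073421) spans chr17:34257689-34269419 on the plus strand. H2-Eb1 (ENSMUSG00000060586) spans chr17:34305867-34316674 on the plus strand, and its start overlaps the antisense gene Gm20513. H2-DMa (ENSMUSG00000037649) at chr17:34119541-34139101 overlaps Brd2 on the opposite strand and the small gene CR974462.3 on its own strand. H2-DMb1 (ENSMUSG00000079547) lies at chr17:34153072-34160230. Cd74 (ENSMUSG00000024610) lies outside the MHC at chr18:60803848-60812652, and Ciita (ENSMUSG00000022504) lies at chr16:10480059-10528418, where it overlaps Dexi on the opposite strand. The counting strand is not given in the sources used here, so reads of such overlapping genes may not be separable.

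The 3 chains together set the overall picture. Over all cells, chain UMIs (H2-Aa, H2-Ab1 and H2-Eb1 summed) stood at 67.4 CPM in the PBS library and at 2063.3 in the CFA library. The cells captured differed as well: macrophage-like cells numbered 26 in PBS and 379 in CFA, and osteoclast-like macrophages 0 and 207. Within classes the chains were also higher in CFA. The interval of the chain ratio lay above 1 in each of the 10 classes that had 50 or more cells in PBS and in CFA. Ratios ran from 1.51 in B cell-like to 71.2 in tenocyte-like cells. The B cell-like ratio was 1.08 without the highest cell of each library, and the tenocyte-like ratio rests on 3 PBS chain UMIs. Cd74 and H2-Eb1 had intervals above 1 in 9 of the 10 classes, all but B cell-like cells. H2-DMa did so in only 5 of the 10, H2-DMb1 in 7 and Ciita in 3.

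**Figure D1:**
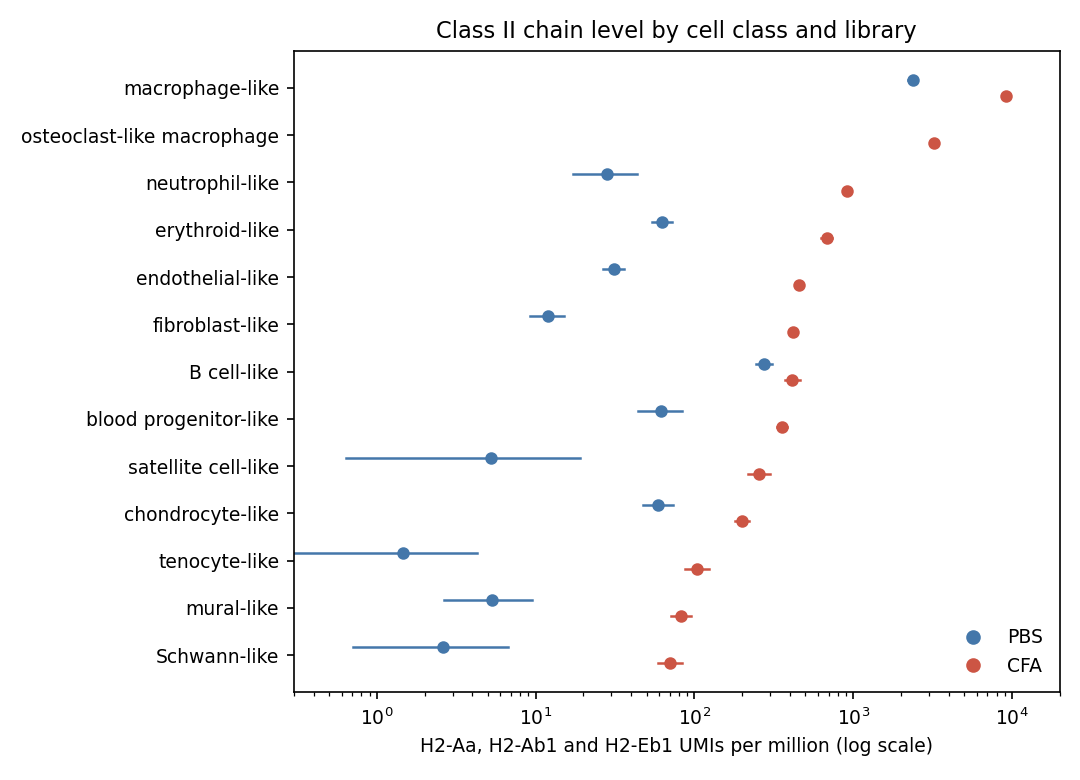
Chain UMIs (H2-Aa, H2-Ab1 and H2-Eb1) CPM on a log scale in each class with at least 50 cells in a library, with points for PBS and CFA and lines for exact Poisson 95% intervals. CFA points run from 70.5 in Schwann-like to 9229.6 in macrophage-like cells and lie right of the PBS point in every class that has both.

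Macrophage-like cells had the highest chain level in both libraries. It was 2370.4 CPM (2210.7 to 2538.5) in 26 PBS cells and 9229.6 (9151.5 to 9308.1) in 379 CFA cells, a ratio of 3.89 (3.63 to 4.18). H2-Aa stood at 1020.0 and 3895.4, H2-Ab1 at 597 and 2586, and H2-Eb1 at 753.4 and 2748.3. Cd74 stood at 2326.9 in PBS and 8172.7 in CFA, a ratio of 3.51 (3.28 to 3.77). The DM genes differed less, with ratios of 1.96 (1.47 to 2.67) for H2-DMa and 2.29 (1.69 to 3.19) for H2-DMb1. Ciita had 10 UMIs in PBS and 319 in CFA, a ratio of 1.90 (1.02 to 4.00). The PBS value rests on few cells, and 1 of them held 318 of the 818 chain UMIs. Without the highest cell of each library the ratio was 6.03, and over the alternatives it ran from 1.71 to 6.03.

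The pattern over cells differed between the libraries too. After thinning each cell to 1000 UMIs, 88.8% of CFA macrophage-like cells (85.2 to 91.8) and 26.9% of PBS cells (11.6 to 47.8) held a chain UMI. Osteoclast-like macrophages, which express the osteoclast genes Acp5 and Dcstamp and were found in CFA alone, had chains at 3225 CPM (3185 to 3265). Each of these 207 cells held a chain UMI as counted, at a median depth of 35687 UMIs, and 78.7% (72.5 to 84.1) did at 1000 UMIs. When the myeloid clusters were clustered again, a step added after the first clusters were seen, macrophage-like cells stood at 3428 in 11 PBS and 10252.8 in 262 CFA cells. These cells lay in different subclusters, since subclusters led by Ccl5 and by Fabp5 held 82 and 83 CFA cells and 0 PBS cells. In the subcluster led by Ccl12, with 3 PBS and 79 CFA cells, the chains stood at 12133.4 (10907.2 to 13459.6) and 13672.5 (13420.5 to 13928). In the one led by Mrc1, with 8 and 18 cells, they stood at 1148.2 and 3625.2. Dendritic cell-like cells, whose leading genes include Siglech, stood at 1494 and 6039.9 in 17 and 25 cells. Monocyte-like cells stood at 543.9 and 925.9 in 30 and 96 cells, a ratio of 1.70 (1.49 to 1.95), while H2-DMa in them was lower in CFA at 0.553 (0.422 to 0.730). The higher chain level of these monocyte-like cells came from 12 CFA cells of the subcluster led by Tnip3, which held 1457 of the 1752 chain UMIs. The other monocyte-like subclusters had a lower chain level in CFA. It was 1598.2 in PBS and 454 in CFA for the one led by Ccr2, and 165 and 29.9 for the one led by Pclaf. These PBS levels rest on few cells. In PBS, 2 of 16 Ccr2 cells carried all 93 H2-Aa UMIs, and 2 of 10 Pclaf cells carried all 24. As counted, the H2-Aa share was 12.5% of PBS and 18.9% of CFA cells for Ccr2. For Pclaf it was 20% and 25.8%. The PBS intervals are wide, 1.55 to 38.3% for Ccr2 and 2.52 to 55.6% for Pclaf, and each holds the CFA share. They cannot show whether the share of cells differed.

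B cell-like cells were the class in which the libraries differed least. Chains stood at 275.5 (244.6 to 309.2) in PBS and 414.9 (371.3 to 462.1) in CFA, a ratio of 1.51 (1.28 to 1.77). Cd74 was 641.8 and 592.1, a ratio of 0.923 (0.818 to 1.04) that holds 1. A single CFA cell held 139 of the 330 chain UMIs, and without the highest cell of each library the ratio was 1.08 (0.885 to 1.31). It turned to 0.885 (0.734 to 1.06) with cells log-normalized and merged without integration, which changed both choices together, so the direction in this class was not stable. Of the 6 members that reached the filter on low counts, 0 were at least 2-fold higher in CFA, where 3.26% of 8530 genes were, and 0 were at most 0.5-fold, where 5.25% were. The early cells of this class, which express the surrogate light chain genes Vpreb1 and Igll1, held 3 chain UMIs in 62 PBS cells and 21 in 60 CFA cells. The remaining B cell-like cells carried Cd74 at 786.9 and 743.9, with a UMI in 40.1% and 50.6% of cells.

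Endothelial-like cells, which line the vessels, had chains at 31.1 CPM (26.7 to 36.0) in 747 PBS cells and 455.0 (439.2 to 471.3) in 1042 CFA cells, a ratio of 14.7 (12.6 to 17.1). H2-Aa gave 66 and 1105 UMIs, a ratio of 14.0 (10.9 to 18.2). H2-Ab1 gave 61 and 952, a ratio of 13.01 (10.03 to 17.1). H2-Eb1 gave 51 and 1072, a ratio of 17.5 (13.2 to 23.7). The chains and their escort were thus higher in CFA by similar factors, since Cd74 gave 250 and 4666 UMIs, a ratio of 15.6 (13.7 to 17.7). H2-DMb1 differed by 14.2 (8.15 to 27.2) and H2-DMa by 5.30 (3.72 to 7.76), with intervals that do not overlap. Ciita, with 7 UMIs in PBS and 115 in CFA, had a ratio of 13.7 (6.44 to 34.8). The filter on low counts was reached by 6 members, and Ciita did not reach it. All 6 were at least 2-fold higher in CFA, where 2.95% of 8615 genes were (2.24% were at most 0.5-fold), and the median ratio of those genes was 1.02. A member can reach the filter through its CFA level alone, so this count is a description.

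**Figure D2:**
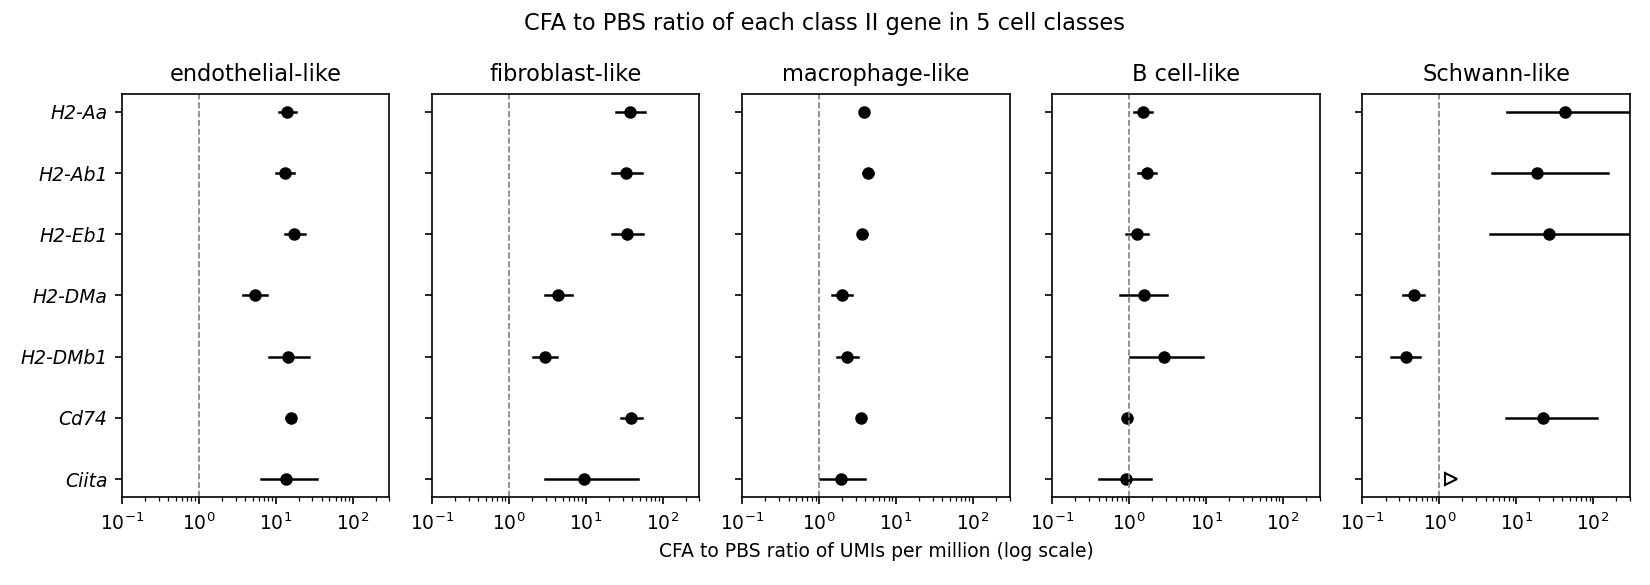
CFA to PBS ratio of CPM for each member on a log scale in 5 cell classes, with exact conditional 95% intervals as lines, a dashed line at 1, and an open triangle for a lower bound where PBS had 0 UMIs. Ratios lie near 14 for most members in endothelial-like cells and near 1 in B cell-like cells, and H2-DMa and H2-DMb1 lie below 1 in Schwann-like cells.

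Vessel segments differed in level. Venular cells, marked by Plvap, Selp, Vcam1 and Nr2f2, had chains at 118.8 CPM (100.9 to 139.0) in PBS and 920.2 (884.8 to 956.7) in CFA, a ratio of 7.74 (6.59 to 9.16). Arterial cells, marked by Gja5 and Sox17, had 12.96 (7.08 to 21.7) and 266.7 (238.1 to 297.8). Capillary cells, marked by Car4 and Gpihbp1, had 3.96 (1.45 to 8.62) and 115.2 (96.0 to 137.1). The other endothelial-like cells did not reach 3 markers of any subtype, though the larger of their clusters reached the capillary markers Car4 and Cd36. They are not read as a separate vessel segment, and they had 1.10 (0.133 to 3.96) and 77.2 (65.0 to 91.1). In CFA this order, venular, arterial, capillary and other, had no overlap between neighbours' intervals, while in PBS the arterial interval overlapped the capillary one and the capillary interval overlapped that of the other cells. Venular cells held 156 of the 178 PBS chain UMIs and 2546 of the 3129 CFA chain UMIs of the class. Over all genes they held 1312625 of the 5730722 UMIs of the class in PBS and 2766650 of 6876305 in CFA. The class ratio of 14.7 thus also takes in a difference in subtype make-up, whose part was not tested.

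All 7 members reached the low-count filter in venular cells. Each was at least 2-fold higher in CFA, against 3.67% of 8811 genes, while 4.83% were at most 0.5-fold. Cd74 stood at 188.2 and 1465.7 and H2-Eb1 at 35.8 and 331.4. H2-DMa stood at 10.7 and 69.4, and H2-DMb1 at 8.38 and 66.5. Ciita stood at 5.33 (2.14 to 10.99) and 29.3 (23.3 to 36.4), and 23.4% of CFA venular cells held a Ciita UMI as counted. In PBS the venular level came from few cells, since 1 cell held 87 of the 156 chain UMIs. Without the highest cell of each library the ratio in endothelial-like cells as a whole was 27.5 in place of 14.7.

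The count of members at least 2-fold higher was 5 of the 5 past the filter in arterial cells, against 5.61% of 8551 genes, with 5.05% at most 0.5-fold. It was 4 of 4 in capillary cells, against 5.31% of 8435 genes, with 4.9% at most 0.5-fold. The other endothelial-like cells gave 3 of 3, namely H2-Aa, H2-Ab1 and Cd74, against 3.88% of 8178 genes, with 6.91% at most 0.5-fold. H2-DMa did not reach the filter in these 3 subtypes.

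At 1000 UMIs per cell, a chain UMI was found in 43.5% of CFA venular cells (36.2 to 51.0) and 4.04% of PBS venular cells (1.11 to 10.0). Arterial cells gave 19.8% (14.1 to 26.5) and 0.752%. Capillary and other endothelial-like cells gave 9.9% and 9.54% in CFA, close to the 9.39% of Schwann-like cells (6.59 to 12.9). The capillary and other endothelial-like shares thus did not stand above the Schwann-like share. Schwann-like cells also had a higher chain level in CFA, so they are not a reference free of class II. The comparison therefore cannot decide whether capillary and other endothelial-like cells express the chains, and no expression is read from it. Ciita in capillary cells gave 0 UMIs in PBS and 11 in CFA, in 6 of 202 cells. The part of free RNA in these shares was not tested. The median depth as counted was 5395 UMIs for PBS and 4412.5 for CFA endothelial-like cells, and 3827 and 3433 for Schwann-like cells.

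**Figure D3:**
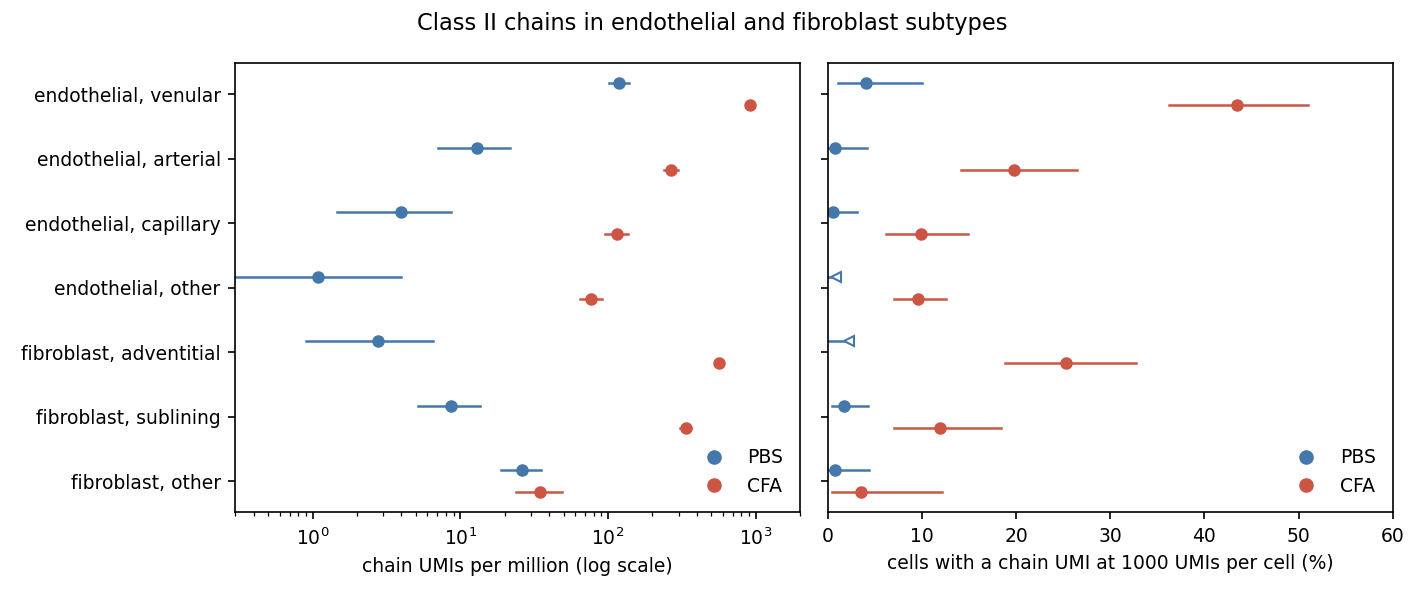
Left, chain CPM on a log scale in endothelial and fibroblast subtypes, with exact Poisson 95% intervals; right, the percent of cells with a chain UMI after thinning to 1000 UMIs per cell, with Clopper-Pearson 95% intervals and open triangles for the limit that a count of 0 allows. The venular CFA cells lie highest in both panels, at 920.2 CPM and 43.5%. In the left panel the remaining fibroblast-like cells differ least between PBS and CFA, where the PBS level comes almost wholly from a single cell.

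Immune transcripts were checked in the same cells. The 13 genes on a list that endothelial and stromal cells should lack, such as Ptprc, Tyrobp, C1qa and Lyz2, summed to 31.4 CPM in PBS and 373.0 in CFA endothelial-like cells, and 13 of 13 were detected in both. Their sum was also higher in Schwann-like cells, at 41.2 and 528.2, and in mural-like cells, at 32.2 and 480.5. In CFA venular cells, where the chains were highest, the immune sum was 207.5 (190.8 to 225.2), and in the other endothelial-like cells, where the chains were lowest, it was 567.8. The part of these transcripts in the chain levels was not tested. After thinning, a UMI of any of 9 immune genes was found in 9.44% (5.6 to 14.7) of CFA endothelial-like cells with a chain UMI and in 9.07% (7.24 to 11.2) of those without one. Cd74 was found in 40.6% (33.3 to 48.1) of the former and 10.7% (8.71 to 12.96) of the latter. Among cells with no UMI of those 9 genes as counted, 693 in PBS and 700 in CFA, the chain ratio was 12.4 (10.6 to 14.6).

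The chains were unevenly spread over endothelial-like cells. In CFA, the 10% of cells with the most chain UMIs held 83.6% of them, against 29.6% in macrophage-like cells. At least 5 chain UMIs were counted in 126 of 1042 CFA cells, or 12.1% (10.2 to 14.2), and in 4 of 747 PBS cells. Of these 126 cells, 100 were venular, 124 held Cd74, and 74 held no UMI of the 9 immune genes. Depth differed with this split, as the 126 cells had a median of 15957.5 UMIs and the CFA cells with no chain UMI had 3932.

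Fibroblast-like cells, the matrix-producing cells of the synovium and capsule, had chains at 11.9 CPM (9.22 to 15.1) in 499 PBS cells and 415.9 (399.2 to 433.2) in 372 CFA cells, a ratio of 35.0 (27.4 to 45.3). H2-Aa gave 24 and 893 UMIs, H2-Ab1 22 and 726, and H2-Eb1 21 and 711. Cd74 gave 41 and 1573, a ratio of 38.6 (28.3 to 53.9). The DM genes differed far less than the chains, by 4.38 (2.94 to 6.69) for H2-DMa and 2.93 (2.08 to 4.19) for H2-DMb1. Ciita gave 3 and 28 UMIs, a ratio of 9.38 (2.90 to 48.2). As in endothelial-like cells, 6 members reached the filter and were at least 2-fold higher in CFA, where 5.09% of 9238 genes were and 3.04% were at most 0.5-fold. In PBS, 1 cell held 42 of the 67 chain UMIs, and without the highest cell of each library the ratio was 84.3. Cells with no UMI of the 9 immune genes gave 88.2 (57.4 to 143.0), from 21 and 1167 chain UMIs.

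Fibroblast subtypes separated in their CFA levels. No cluster of this class was named as synovial lining cells, and a cluster led by Prg4 stayed unnamed outside it. Adventitial cells, marked by Pi16 and Dpp4, held 5 chain UMIs in 131 PBS cells and 1803 in 162 CFA cells, or 2.79 (0.907 to 6.52) and 562.4 (536.7 to 588.9) CPM. Sublining cells, marked by Col15a1 and Apod, had 8.66 (5.21 to 13.5) and 335.1 (306.2 to 365.9). The remaining cells, led by Angptl1 and Cilp, had 26.1 (18.9 to 35.2) and 34.8 (23.8 to 49.2), a ratio of 1.33 (0.817 to 2.16) that holds 1, and 42 of their 43 PBS chain UMIs came from 1 cell. As counted, 1 of their 126 PBS cells held an H2-Aa UMI, or 0.794% (0.0201 to 4.34). In CFA 12 of 57 did, or 21.1% (11.4 to 33.9). At 1000 UMIs, 0 PBS cells and 1 CFA cell did. Cd74 in these remaining cells was 22.5 and 13.1. Over all genes, adventitial cells held 1790143 of the 5629734 UMIs of the class in PBS and 3206040 of 5601708 in CFA. The fibroblast-like ratio thus also takes in a difference in subtype make-up, whose part was not tested. In adventitial cells 6 members reached the filter and all 6 passed 2-fold, against 5.95% of 8788 genes, with 4.48% at most 0.5-fold. In sublining cells the same 6 did so, against 10.2% of 9682 genes, with 4.57% at most 0.5-fold. At 1000 UMIs, 25.3% (18.8 to 32.7) of CFA adventitial cells held a chain UMI, against 0 of 131 PBS cells, which allows a share of up to 2.29%. The share was 11.9% (7.08 to 18.4) in CFA sublining cells, which does not stand apart from the 9.39% of Schwann-like cells. At least 5 chain UMIs were counted in 58 of the 162 CFA adventitial cells and in 12 of the 153 sublining cells. Of the 58, 28 held no UMI of the 9 immune genes. The immune sum was 407 in CFA adventitial and 439 in CFA sublining cells. Of the immune genes past the filter, 4 of 4 in adventitial cells were at least 2-fold higher, with a median ratio of 3.70. In sublining cells 6 of 6 were, with a median of 22.2, and over the class 5 of 5, with a median of 5.80. The shares of all genes were the 5.95%, 10.2% and 5.09% given above. The part of immune transcripts in the class II levels was not tested.

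Other stromal classes lay lower. In mural-like cells, the contractile cells around vessels, the chains gave 11 UMIs in PBS and 188 in CFA, of which 1 cell held 67, and H2-Aa, H2-Ab1, H2-Eb1 and Cd74 reached the filter and passed 2-fold, against 2.4% of 9079 genes, with 4.16% at most 0.5-fold. Tenocyte-like cells gave 3 and 142 chain UMIs, with 1 cell holding 47, and 4 of the 5 members that reached the filter passed 2-fold against 3.61% of 9061 genes, with 3.83% at most 0.5-fold. Satellite cell-like cells, the stem cells of muscle, gave 2 and 157 chain UMIs. In CFA, 8 of 88 satellite cell-like cells held at least 5 chain UMIs, all 8 held Cd74, and 2 of the 8 held an immune gene. Their share at 1000 UMIs was 14.9% (8.2 to 24.2), an interval that holds the Schwann-like share. Of the 4 members that reached the filter in them, all passed 2-fold, against 8.45% of 6366 genes, with 6.88% at most 0.5-fold. Immune genes that these stromal cells should lack differed as well. Their sum was 51.7 and 395.8 CPM in tenocyte-like cells, where 5 of the 5 past the filter were at least 2-fold higher with a median ratio of 8.28. In satellite cell-like cells it was 13.2 and 420.2, with 3 of 3 and a median of 82.7, and in mural-like cells 4 of 4 with a median of 27.2. Their part in the class II levels was not tested.

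Neutrophil-like cells held 20 chain UMIs in 63 PBS cells and 2707 in 327 CFA cells. They were concentrated in few cells, as 26 of the 327 held at least 5 and the share at 1000 UMIs was 11.8% (8.49 to 15.8). The filter was reached by 6 members, which passed 2-fold, against 8.4% of 7652 genes, with 12.1% at most 0.5-fold. The macrophage genes C1qa and C1qb were higher in the same cells, at 28.3 and 156.1 CPM and at 25.4 and 172.3, and C1qc, Csf1r and Ptprc also passed 2-fold. Their part in the class II levels was not tested. The second clustering of the myeloid clusters gave a further neutrophil-like group outside this class, led by Retnlg, with 2 PBS and 57 CFA cells. Its CFA cells held 6645 chain UMIs, and 89.5% of them held an H2-Aa UMI as counted. The part of macrophage transcripts in that group was not tested.

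Chondrocyte-like cells, the cartilage cells, showed 1 chain without the others. In PBS they held 84 UMIs of H2-Ab1, a UMI in 50% of 58 cells, and 0 of H2-Aa, 3 of H2-Eb1 and 0 of Cd74. H2-Ab1 was 57.2 CPM (45.6 to 70.8) in PBS and 78.2 (66.2 to 91.9) in CFA, a ratio of 1.37 (1.04 to 1.81). H2-Aa gave 119 UMIs in CFA, at least 30.6-fold higher against a limit of 3 counts in PBS, and Cd74 gave 277. A single CFA cell held 198 of the 379 chain UMIs. Of the 6 members that reached the filter, 3, namely H2-Aa, H2-Eb1 and Cd74, were at least 2-fold higher, against 4.66% of 8425 genes, with 4.85% at most 0.5-fold. The immune genes summed to 19.7 CPM in PBS and 393.8 in CFA, and Lyz2, Fcer1g and Cd52, the 3 that reached the filter, were at least 2-fold higher with a median ratio of 21.6. Their part in the class II levels was not tested. H2-DMb1 was present in both libraries at 24.5 (17.2 to 33.9) and 29.4 (22.2 to 38.2).

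H2-DM stood apart from the chains in several classes. Schwann-like cells, the glia of peripheral nerve, held 4 chain UMIs and 3 Cd74 UMIs in PBS but 112 of H2-DMa and 74 of H2-DMb1. H2-DMa was 73.3 CPM (60.3 to 88.2) in PBS and 34.1 (26.2 to 43.8) in CFA, a ratio of 0.466 (0.336 to 0.641). H2-DMb1 was 48.4 (38.0 to 60.8) and 17.6 (12.1 to 24.9), a ratio of 0.364 (0.233 to 0.558). The chains moved the other way, at 2.62 (0.713 to 6.70) and 70.5 (58.8 to 83.8), a ratio of 26.9 (10.3 to 100.4). Of the 5 members that reached the filter, H2-Aa, H2-Ab1 and Cd74 were at least 2-fold higher in CFA, against 5.82% of 9280 genes, and the DM genes were at most 0.5-fold, against 2.44%. The clusters of this class were not alike: in the largest, with 261 PBS and 322 CFA cells, H2-DMa was 85.9 (70.4 to 103.7) and 48.9 (37.1 to 63.2), a smaller gap that stays above 0.5-fold, and H2-DMb1 was 59.4 (46.6 to 74.5) and 25.3 (17.1 to 36.1). The cluster led by Fabp7 held 3 PBS and 16 CFA cells and had H2-DMa at 2.86 in CFA. At 1000 UMIs the shares with H2-DMa were 4.01% (2.09 to 6.91) and 4.42% (2.55 to 7.08), with overlapping intervals, while those with H2-DMb1 were 3.01% (1.39 to 5.64) and 1.1% (0.302 to 2.80).

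Blood progenitor-like cells had H2-DMa at 140.3 (113.2 to 171.9) in 31 PBS and 99.9 (87.7 to 113.3) in 130 CFA cells, with chains at 61.9 and 356.0. Of the 41 PBS chain UMIs, 1 cell held 36. The blood progenitor-like ratio of H2-DMa was 0.712 (0.559 to 0.915). The interval of the H2-DMa ratio held 1 in mural-like cells, with a ratio of 1.504 (0.673 to 3.52), and in tenocyte-like cells, with 1.34 (0.449 to 3.91). Its near-identical relative H2-DMb2 makes counts of H2-DMb1 uncertain where reads could be split between them.

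**Figure D4:**
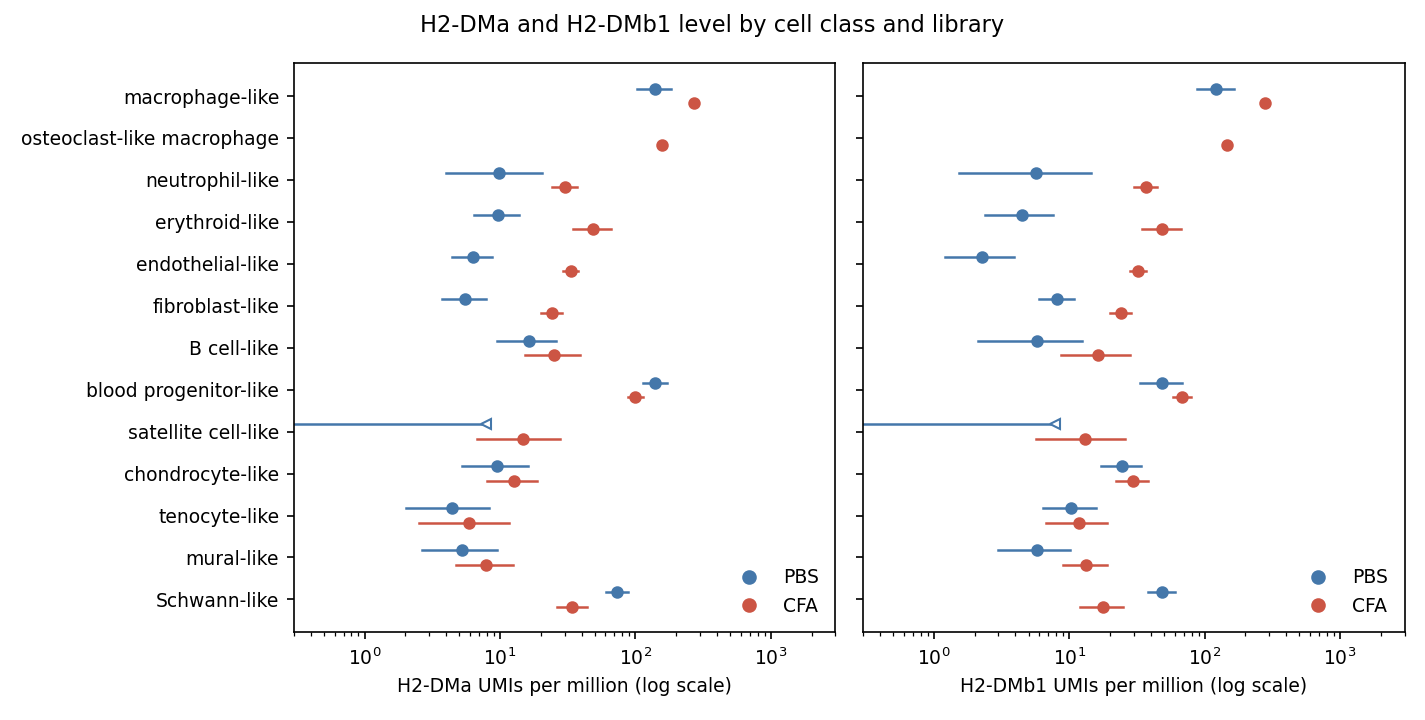
H2-DMa (left) and H2-DMb1 (right) CPM on a log scale by class and library, with exact Poisson 95% intervals and open triangles where PBS had 0 UMIs. Schwann-like cells are the class in which CFA lies left of PBS with separate intervals in both panels, at 34.1 against 73.3 for H2-DMa.

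The balance between Cd74 and the chains differed among cell classes. UMIs at the 3′ end are not proportional to transcript length, so the share of Cd74 among Cd74 and chain UMIs was compared between classes only. It was 61.4% (60.2 to 62.6) in CFA and 61.3% (56.3 to 66.1) in PBS venular cells. In CFA macrophage-like cells it was 47.0% (46.7 to 47.3) and in CFA adventitial fibroblasts 38.8% (37.0 to 40.6). B cell-like cells had 70.0% (67.0 to 72.9) in PBS and 58.8% (55.3 to 62.2) in CFA. The venular and adventitial values thus lay on opposite sides of the macrophage value, with intervals that do not overlap. Arterial, capillary and other endothelial-like cells had 51.8%, 51.3% and 49.6% in CFA. H2-Eb1 made up 36.0% (34.1 to 37.9) of chain UMIs in CFA venular cells, 31.3% (29.1 to 33.5) in adventitial and 29.8% (29.4 to 30.2) in macrophage-like cells. H2-Aa made up 34.4% (32.6 to 36.3), 37.9% (35.7 to 40.2) and 42.2% (41.8 to 42.6). For every 100 chain UMIs, CFA venular cells held 3.18 Ciita UMIs, adventitial cells 1.05 and macrophage-like cells 0.597. The value was higher than the venular one in CFA capillary (8.66), arterial (5.71), other endothelial-like (3.55) and B cell-like cells (3.94). These rest on 11, 18, 5 and 13 Ciita UMIs.

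**Figure D5:**
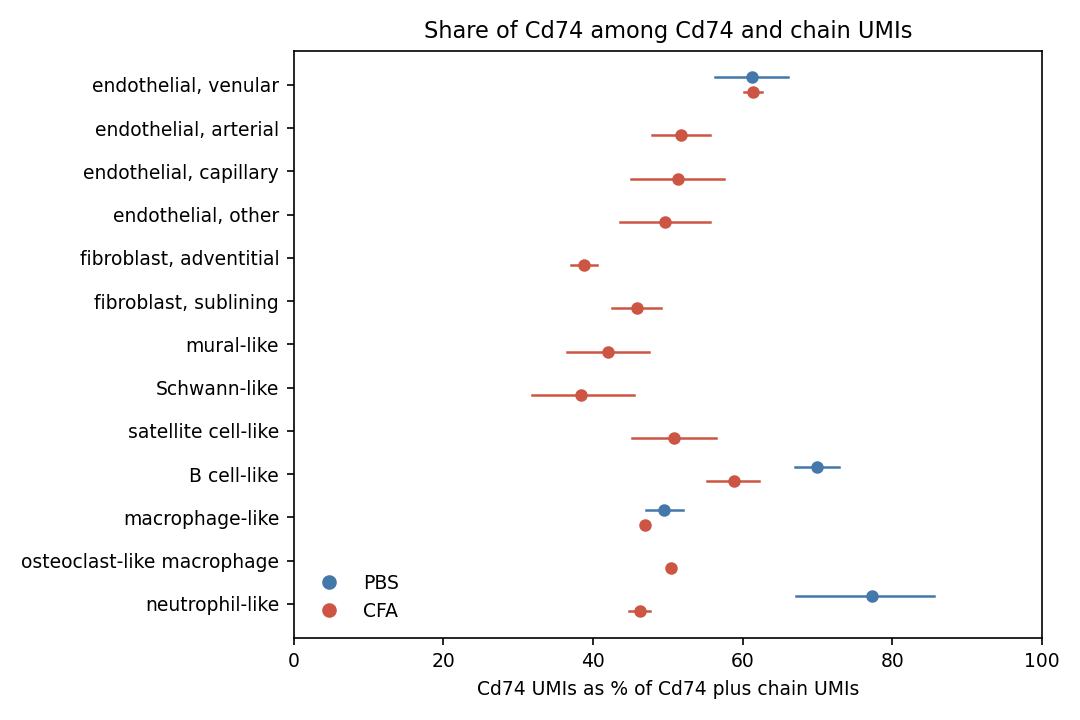
Cd74 UMIs as a percent of Cd74 plus chain UMIs, for populations with at least 80 such UMIs, with exact binomial 95% intervals, in PBS and CFA. CFA venular cells lie at 61.4%, macrophage-like cells at 47.0% and adventitial fibroblasts at 38.8%.

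The wider class II pathway was counted from lists by role, with the ratio of the genes that reached the filter. Of 12 genes of class II transcription, 7 reached it in endothelial-like cells and 1, Irf8, was at least 2-fold higher, at 25.1 and 59.0 CPM. Creb1, which binds the same promoter module, stood at 109.2 and 108.6, and Nfya, Nfyb and Nfyc had ratios between 1.04 and 1.30. Rfxap, a subunit of the RFX complex, was lower at 0.522 (0.435 to 0.624). The median ratio of the 7 was 1.04, beside 1.02 over all genes. In fibroblast-like cells the same count was 1 of 7, again Irf8, at 6.93 and 16.96.

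Of the antigen processing genes, 2 of 7 passed 2-fold in endothelial-like cells, where 2.95% of all genes did. Lgmn, the endosomal protease legumain, stood at 32.6 and 96.4, a ratio of 2.95 (2.51 to 3.49). Ctss, the protease that trims the invariant chain in antigen-presenting cells, stood at 0.698 and 49.9, with 63.9 in CFA Schwann-like cells, and is among the genes of macrophages. Ctsl, Ctsb and Ctsd had ratios of 0.708, 1.12 and 0.978. Of the costimulation genes, Cd274, which encodes the inhibitory ligand PD-L1, stood at 77.5 and 273.7, a ratio of 3.53 (3.18 to 3.93), and Cd40 at 15.2 and 12.4. In fibroblast-like cells Cd80 and Cd274 had ratios of 4.55 (2.81 to 7.68) and 6.26 (4.12 to 9.88), which were 2 of 2, where 5.09% of all genes passed 2-fold.

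Of 15 genes of the interferon gamma response, 6 passed 2-fold in endothelial-like cells, where 2.95% of all genes did, among them Gbp4, with a median ratio of 1.78 over the 15. Gbp4, a guanylate-binding protein, had 93.7 and 745.9 CPM, a ratio of 7.96 (7.28 to 8.72). Fibroblast-like cells gave 9 of 15 with a median ratio of 5.89, where 5.09% of all genes passed, and H2-K1, a class I heavy chain, stood at 210 and 2277.2. Schwann-like cells gave 10 of 14 with a median of 2.98, against 5.82% of all genes, and B cell-like cells 3 of 14 with 1.41, against 3.26%. The receptor genes Ifngr1 and Ifngr2 had ratios of 1.10 and 1.05 in endothelial-like cells.

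The genes whose levels most resembled the mean of the chains and Cd74 were sought over 23 pools of class and library among 10114 genes, by Pearson correlation of log2 levels. Ctss (0.920), Acsl4 (0.898), Ccl5 (0.890) and Malt1 (0.878) came first, followed by Bst1, Gna13, Fcgr2b, C1qb, Ly6i and Ms4a6d. Among the members the values were 0.995 for H2-Aa and 0.993 for H2-Eb1, which are part of that mean, and 0.766 for H2-DMa and 0.760 for H2-DMb1. The pools share 2 libraries, so these values are a description. Ciita did not reach the level filter of 10 CPM.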

How the data were processed

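Raw UMI counts per gene and barcode, deposited by the authors for 1 PBS and 1 CFA library, came from Cell Ranger 7.0.1 and GRCm38 (mm10). The deposited libraries held 7671 and 5709 barcodes with 51146169 and 53517206 UMIs. Labels name kit version 2, the methods 3.1. From the counts, Seurat 5.3.0 (sctransform 0.4.2, R 4.3.3) normalized each library, integrated both on 3000 genes without the 5 class II genes among them, and clustered on 200 components at resolution 1.5. A cluster was named when at least 3 of a class's markers reached 25% of its cells and 2-fold the other cells within a library. Python 3.11.15, numpy 2.4.6, scipy 1.17.1, pandas 2.3.3 and scanpy 1.11.5 computed the rest, and matplotlib 3.10.9 drew the figures. Doublets were kept: the automatic threshold of Scrublet marked 21 PBS and 2 CFA cells, too few to rely on, so removal of the 5% highest scores was an alternative.

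The groups came from the labels, and replicate tests were not possible. UMIs were summed over the cells of a class, and 3 counts stood in as the limit where none was seen. Ratios over all genes used those with at least 20 UMIs and a mean of at least 10 CPM. The named genes were the 7 members in classes with at least 50 cells in a library, with lists counted by role. Members and lists were chosen with earlier results of these data known. The naming step, tested on simulated data, named 12 of 12 clusters, and the endothelial-like ratio step on 32285 genes put 100% of 142 genes changed 4-fold past 2-fold and covered 95.5% of ratios. The simulated counts followed the model that the intervals assume, and each simulated cluster had its own markers raised. These checks thus test the computation only. They cannot show how the intervals or names hold with real spread between cells. The alternatives changed clustering, cell limits, scaling and thinning.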

Additional observations from a re-analysis of the deposited data

Results flagged for a closer look

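H2-DMa and H2-DMb1 were flagged because they were lower in CFA in Schwann-like cells, with ratios of 0.466 and 0.364, and higher in endothelial-like cells, with ratios of 5.30 and 14.2. Within the largest Schwann-like cluster H2-DMa stood at 85.9 CPM in PBS and 48.9 in CFA, a smaller gap than over the class. Each direction rests on 1 library per condition and the difference between the classes was not tested.

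Chain UMIs were also present in barcodes outside the comparisons, above the PBS level. Barcodes over the hemoglobin limit had chains at 28.8 CPM in 3178 PBS and 406.6 in 339 CFA barcodes. Those removed by the gene or mitochondrial limit held 3.31 in 1826 PBS and 302.0 in 1356 CFA barcodes.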

How the results depend on the processing

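One alternative, called merged here, log-normalized the cells and merged the libraries without integration, 2 choices changed together. The chain ratio stayed above 1 under every alternative run in endothelial-like (17), fibroblast-like (16) and macrophage-like cells (16), and under 14 of 15 in B cell-like cells. In endothelial-like cells it was 40.9 with each cell classed on its own, 12.4 without cells with immune transcripts, 17.6 as a mean over cells and 27.2 thinned to 1000 UMIs. An alternative added after seeing the data, without the highest cell of each library, gave 27.5. The other 12 stayed within the interval of 12.6 to 17.1.

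In fibroblast-like cells the ratio was 101.6 merged, 90.4 with class II genes kept for clustering, 89.6 with no hemoglobin limit, 21.8 with each cell classed on its own, 74.8 without the highest doublet scores, 88.2 without cells with immune transcripts, 23.5 and 62.8 thinned to 1000 and 2000 UMIs, 84.3 without the highest cells and 46.6 per cell. The PBS count of 67 chain UMIs, of which 1 cell held 42, limits this ratio.

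In macrophage-like cells it was 2.44 at resolution 0.8, 4.94 with 50 components, 3.01 merged, 1.99 with class II genes kept, 5.07 with no hemoglobin limit, 2.11 with at least 1000 genes, 2.16 with the 20% mitochondrial limit, 1.71 with each cell classed on its own, 2.43 without the highest doublet scores, 4.48 scaled by the median gene, 4.26 as a mean over cells, 5.10 and 4.67 thinned, 6.03 without the highest cells, 4.48 per cell and 2.99 with the second clustering. The PBS cells of this class numbered between 9 and 30 under these alternatives.

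In B cell-like cells it reversed to 0.885 merged, and was 1.28 without the highest doublet scores, 1.17 as a mean over cells, 1.19 and 1.13 thinned and 1.08 without the highest cells. Except where a cell count is given, the cause was not tested. No paired analysis was possible because each condition has 1 library.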

Other observations

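Some cell groups could not be named and entered no comparison. A cluster led by Rbp7 and Fabp4, with endothelial markers and few UMIs, held 2 chain UMIs in 50 PBS cells and 218 in 199 CFA cells, or 10.3 and 615.8 CPM. A cluster led by Gpc5 held 1 chain UMI in 38 PBS cells and 518 in 85 CFA cells, or 2.13 and 442.0 CPM. A cluster led by Prg4 held 0 H2-Aa UMIs in 29 PBS and in 6 CFA cells, which allows up to 5.68 and 22.2 CPM. A myeloid group led by Nos2 and Arg1, found in 122 CFA cells, had chains at 5886.3 CPM, and 91.0% of its thinned cells held a chain UMI.

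T or NK cell-like cells of the second clustering held 0 chain UMIs in 8 PBS cells, which allows up to 82.3 CPM, and 4496.1 CPM in 64 CFA cells. They were split from the myeloid clusters, and 46.9% of these CFA cells held an H2-Aa UMI as counted. H2-Aa made up 42.9% of their chain UMIs with 0.891 Cd74 UMIs per chain UMI, beside 42.2% and 0.885 in CFA macrophage-like cells. The part of doublets or macrophage transcripts in this level was not tested. Erythroid-like cells held 62.9 and 681.2, and their immune sum in CFA was 4595.9 CPM.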
